A study of Equus caballus with 4 samples.

Results

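The genes of the MHC class II family and its invariant chain were examined in satellite cells of the horse (ESC) that differentiated with or without HMB, which derives from leucine. Members were the probes whose gene name is *CD74*, *CIITA*, *DRA*, *DRB*, *DQA* or *DQB*, or whose description names MHC class II. This gave 30 of the 43603 probes of the array. The family was selected on its ratios of HMB-treated to control cells in the same arrays, so that the ratios of its members are a description. No member is given a P value, and counts of members called in the fit of all probes are not read as support.

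The ESC came from the m. semitendinosus of 6-month-old colts, were freed with a protease and were preplated to reduce fibroblasts. HMB-treated cells received HMB for 24 h after day 2 of differentiation, while control cells stayed in differentiation medium, and both were taken on day 3. The labels give the dose as 50 µg, whereas the methods give 50 µM. The description field of each sample calls the treated cells GO-treated, but the titles and source names say HMB, which was used here. Cy5 carried the RNA of HMB-treated cells and Cy3 that of control cells on each of the 4 arrays (*n* 4) of 1 slide. As the dyes were never exchanged, an effect of HMB on a probe and a bias of that probe towards 1 dye cannot be told apart. By the methods, the cells of every colt were divided between an HMB plate and a control plate. The sources used here do not say which colts supplied the cells of each array, nor whether the samples were matched by colt on it.

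The value of a probe is its log2 ratio of HMB-treated over control cells, taken from the ratio that the authors deposited after dye normalisation, and a negative value stands for lower mRNA in HMB-treated cells. Signals are processed intensities in the units of the scanner software. Errors are SD over the 4 arrays, whose number limits the precision of every value.

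MHC class II molecules pair an alpha and a beta chain, and they present peptides taken up by the cell to helper T cells. New pairs are held by the invariant chain, encoded by *CD74*, which fills the peptide groove and steers them to endosomes, where proteases remove it and the DM molecule helps peptide to bind. Transcription of the family depends on CIITA, a coactivator that binds no DNA itself and is recruited by the RFX and NFY factors at class II promoters. Interferon gamma raises CIITA through JAK kinases. Resting muscle fibres carry little class II, while cultured myoblasts can be induced to make it by interferon gamma.

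The 30 probes fell on 20 sites, because 5 *DRB* probes, 5 probes of a DQ-beta transcript, a pair for *DOB* and a pair for *BTNL2* overlap one another. Of the 30 probes, 20 were well above background in the same channel on all 4 arrays and could be compared, and 10 could not. The latter were the 5 overlapping DQ-beta probes, 1 *DQA* probe and the probes of *DOB* and *BTNL2*. The 5 DQ-beta probes carry the gene name *DRB* but the description of a DQ-beta chain (L33910), so that their gene is uncertain. In the fit of all 27384 tested probes with limma, 14 of the 20 members had an adjusted P of at most 0.05, all lower in HMB-treated cells. Over all tested probes, 11.6% were lower in this sense and 11.2% higher. Nothing is read from the count of members, which were chosen with this comparison known.

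The invariant chain was represented by 1 probe (NM_001099770, chr14:26862718-26863097, forward strand), and CIITA by 1 probe (ENSECAT00000025579, chr13:15756983-15757207, reverse strand). All positions are those that the files give on EquCab1. The sequences of both are shown because the partner that holds class II molecules and the coactivator of their genes gave opposite signs.
CD74 probe: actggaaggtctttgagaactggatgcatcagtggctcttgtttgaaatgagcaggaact
CIITA probe: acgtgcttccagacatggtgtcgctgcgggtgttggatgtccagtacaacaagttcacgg
The control signal of *CD74* was 95.1, 87.1, 131.9 and 120.9 on arrays 1 to 4, and the HMB signal was 19.8, 12.3, 13.1 and 12.8. The groups did not overlap, and the HMB signal was far below the control signal on every array. On arrays 2 to 4 the HMB signal was not well above background, so that it was measured on 1 array of 4. The log2 ratio was -2.26, -2.82, -3.34 and -3.24, a mean of -2.91 ± 0.49. With the HMB signal raised to the lowest level that counts as above background, control cells had at least 6.41-fold more *CD74* mRNA. This and the other bounds below rest on signals scaled across arrays, are open to dye bias and hold only for the deposited background subtraction. With normexp background correction and loess the mean of *CD74* was -1.36, a smaller difference than the bound. In RNA from whole cultures, fewer cells that express a gene and less of its RNA per cell cannot be told apart.

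*CIITA* was dim, but both its signals stood well above background on every array. Its control signal was 37.5, 26.5, 31.9 and 26.7, and its HMB signal 46.5, 33.2, 33.1 and 40.5, with overlapping groups. The log2 ratio was 0.31, 0.32, 0.05 and 0.60, with a mean of 0.32 ± 0.22. The coactivator was thus no lower in HMB-treated cells on any array, although the ratio was near 0 on array 3. With normexp background and loess the mean was 0.09. With normexp background and median centring, called without lowess below, the ratios of all tested probes had a median of 0.15, and relative to it the mean of *CIITA* turned to -0.12.

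**Figure D1:**
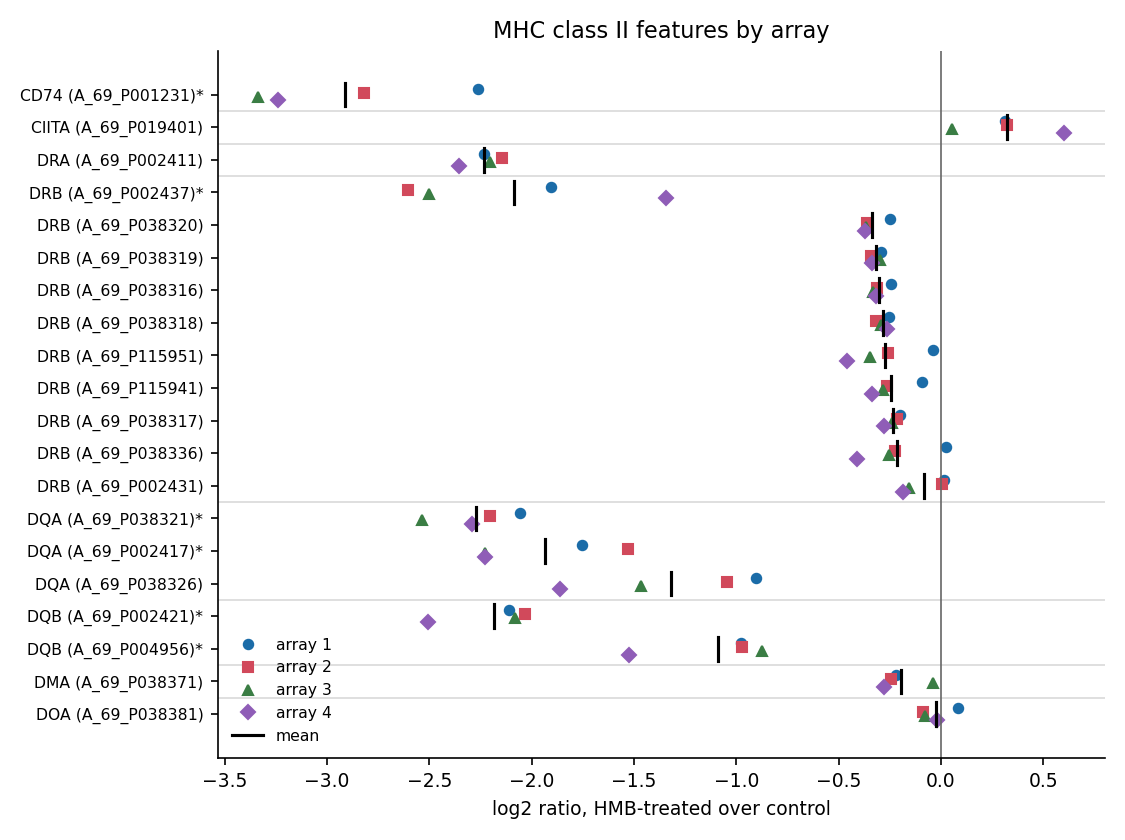
Log2 ratio of HMB-treated over control cells (x axis) for each of the 20 tested probes (y axis), by array, with the mean as a bar and an asterisk where the HMB signal was not well above background on all 4 arrays. *CD74*, *DRA* and the *DQA* and *DQB* probes lie to the left, with means between -2.91 and -1.09, while 9 of the 10 *DRB* probes lie between -0.34 and -0.08.

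The alpha chain of DR is encoded by *DRA*, and its probe (ENSECAT00000013294) was the only member with a mean below -2 whose signals stood well above background on every array in both dyes. It lies at chr20:26124653-26124712 on the forward strand. Its sequence is given beside those of the DQ chains, which carry the other large differences.
DRA probe: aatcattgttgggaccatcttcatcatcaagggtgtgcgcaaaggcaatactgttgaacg
DQA probe: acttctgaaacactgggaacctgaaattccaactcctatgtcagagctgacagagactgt
DQB probe: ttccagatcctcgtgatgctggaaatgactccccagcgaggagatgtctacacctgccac
The control signal of *DRA* was 275.0, 252.0, 345.8 and 394.9, and its HMB signal 58.4, 57.1, 75.2 and 77.3. Both groups were far apart on every array. The log2 ratios of -2.24, -2.14, -2.20 and -2.35 gave a mean of -2.23 ± 0.09, which is 4.70-fold lower in HMB-treated cells. This was the tightest ratio among the members with a mean below -1.

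DQ molecules are a separate class II isotype, with the alpha chain from *DQA* and the beta chain from *DQB*. The *DQA* probe shown above (NM_001142812, chr20:26450189-26450497, forward strand) had control signals of 63.9, 57.3, 68.8 and 79.6. Its HMB signals of 15.4, 12.4, 11.9 and 16.2 were not well above background on any array. The log2 ratio was -2.06, -2.21, -2.54 and -2.29 (mean -2.27 ± 0.20), and control cells had at least 4.27-fold more by the deposited background subtraction, although normexp and loess gave a mean of -0.83. A different *DQA* transcript (ENSECAT00000026107) behaved alike in sign, with ratios of -1.76, -1.53, -2.23 and -2.23 and a bound of at least 2.02-fold. The third tested *DQA* probe (NM_001142814, *DQA3* in RefSeq) was measured in both channels on all arrays. Its ratio was smaller, at -0.90, -1.05, -1.47 and -1.86, a mean of -1.32 ± 0.43, and its signals did not overlap between groups. The *DQA* probe that could not be compared (NM_001128593) was not well above background in either channel.

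The *DQB* probe shown above (NM_001142813, chr20:26466902-26466961, reverse strand) had control signals of 68.8, 63.5, 87.4 and 86.4 and HMB signals of 15.9, 15.5, 20.7 and 15.2. The HMB signal was well above background on 3 of 4 arrays. The log2 ratios were -2.11, -2.03, -2.08 and -2.51 (mean -2.18 ± 0.22), with control cells at least 4.39-fold higher. A probe made from a partial *DQB* allele (AF348966) had ratios of -0.98, -0.97, -0.87 and -1.53 (mean -1.09 ± 0.30), with the HMB signal well above background on 3 of 4 arrays. With normexp and loess its mean was -0.45. On both *DQB* probes array 4 gave the lowest ratio. The groups did not overlap for either of them.

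**Figure D2:**
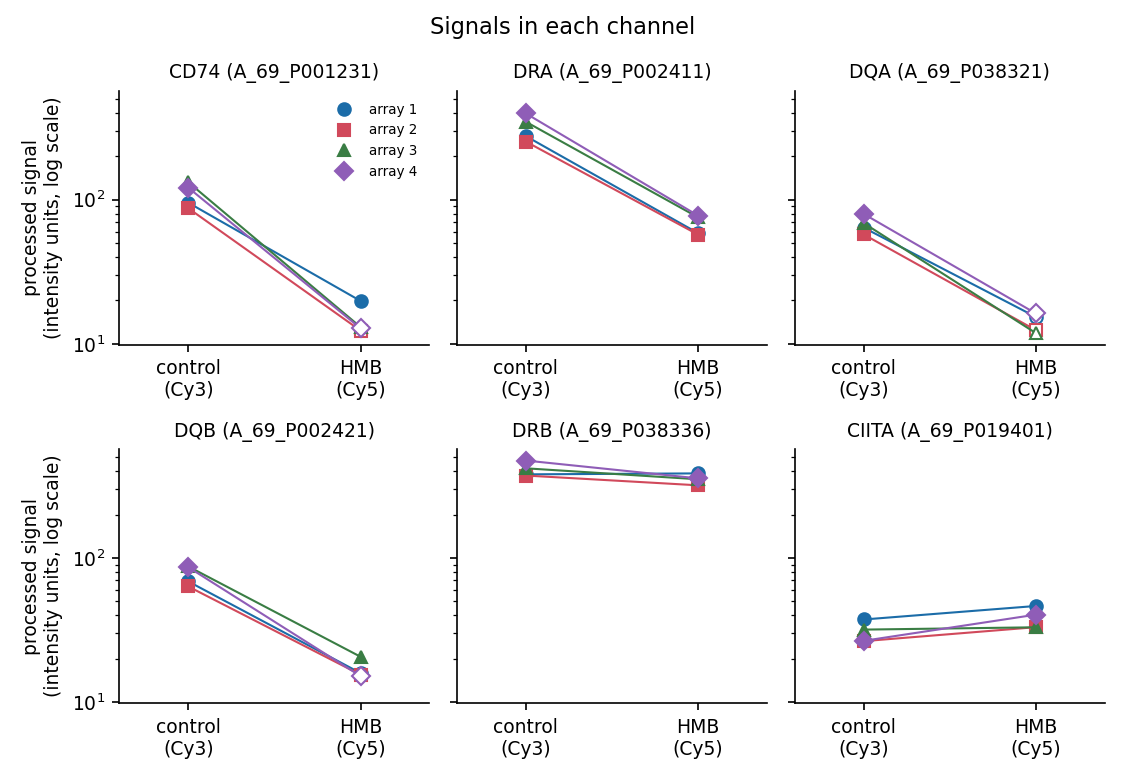
Processed signal (y axis, log scale) of 6 member probes in control (Cy3) and HMB-treated (Cy5) cells, with a line for each of the 4 arrays and open symbols where the signal was not well above background. The lines of *CD74*, *DRA*, *DQA* and *DQB* slope down on every array, those of the *DRB* probe are close to level and those of *CIITA* are level or slope up.

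The beta chain of DR was covered by 10 probes on 6 sites, all of them compared, and these disagreed with one another. The 5 overlapping probes at the end of transcript NM_001142811, each shifted by 1 base from the next, had means between -0.34 and -0.23. Their control signals lay between 1070 and 1701 and their HMB signals between 857 and 1366. A further probe of this transcript (chr20:26145607-26145666) had a mean of -0.24 ± 0.11, and one made from a *DRB1* allele (JQ254084) a mean of -0.28 ± 0.18. The probe of *DRB2* (NM_001142815) had ratios of 0.02, 0.00, -0.16 and -0.19, a mean of -0.08 ± 0.11. At these 4 sites the control and HMB signals overlapped, and the ratios were small beside those of *DRA*.

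The 2 probes of transcript NM_001142816 gave the widest disagreement within 1 transcript. They are shown because the files assign both to the same *DRB* accession, and they share no run longer than 6 bases.
DRB probe with the larger ratio: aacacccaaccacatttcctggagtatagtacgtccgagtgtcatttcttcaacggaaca
DRB probe with the smaller ratio: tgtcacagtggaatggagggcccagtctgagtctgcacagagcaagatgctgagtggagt
The former lies at chr20:26789850-26797526 and the latter at chr20:26800239-26801032, both on the forward strand. The former had control signals of 20.2, 21.7, 25.0 and 32.9, while its HMB signals of 5.40, 3.57, 4.42 and 12.96 were not well above background on any array. Its ratios were -1.90, -2.60, -2.50 and -1.34 (mean -2.09 ± 0.58), and the bound was at least 1.58-fold. The latter was bright in both channels, with control signals of 380.2, 373.0, 418.6 and 473.8 and HMB signals of 386.0, 319.1, 351.4 and 356.5. Its ratios were 0.02, -0.23, -0.25 and -0.41 (mean -0.22 ± 0.18). The files match this second probe to 3 *DRB* transcripts (NM_001142816, NM_001142811 and NM_001142815), so that its signal may hold RNA of several *DRB* genes. As *DRB*, *DQA* and *DQB* copies are close in sequence and vary between horses, the ratio of any single copy is uncertain. Cross-hybridisation was not tested.

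The probes of the alpha chains of DM and DO had small ratios, and no member was described as DM beta. The probe of DM alpha (ENSECAT00000004234, chr20:26943816-26943875), which is part of the molecule that edits peptides in endosomes, had ratios of -0.22, -0.24, -0.04 and -0.28 (mean -0.20 ± 0.11). Its HMB signals lay below all its control signals, and its ratio was close in size to those of several *DRB* probes. The probe of DO alpha, part of the modulator of DM, had ratios of 0.08, -0.09, -0.08 and -0.02 (mean -0.03 ± 0.08). With normexp background and loess the mean of DO alpha became 0.05. Neither DO beta nor *BTNL2*, a butyrophilin-like gene of the region, was well above background on all arrays in any channel.

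Among the 20 compared members the mean was negative for 19, and it was negative on all 4 arrays for 16. For 6 of the 20 the HMB signal was not well above background on all arrays. Such a member was kept through its control signal and had to differ, so that these counts support nothing. The HMB signals of 9 members lay below all control signals of the same probe, as they did for 10.1% of all tested probes. The median of the 20 means was -0.31, whereas the median of all tested probes was 0.02. A mean below -1 was found for 8 members, on 8 sites, and for 315 (1.15%) of all tested probes. The signs of 18 members relative to the median of all tested probes held after normexp background correction with loess and without lowess, the exceptions being *CIITA* and DO alpha. The size of the ratios changed in the alternatives with normexp background. These also changed the normalisation, so the part of the background step alone was not tested. With normexp and loess the mean was -1.36 for *CD74*, -1.73 for *DRA*, -0.83 for the *DQA* probe shown, -1.04 for the *DQB* probe shown and -0.41 for the dim *DRB* probe. The probes held between 35% and 68.3% G and C, and the longest run shared by probes of different chains was 17 bases, between a *DRB* and the *DOB* probes.

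The class II genes lie together on chromosome 20 of the horse, while *CD74* and *CIITA* do not. Between the outermost class II probes, chr20:26056533-26988200, the array had 41 tested probes, of which 17 were members and 24 were others. The neighbours are given as values with no test, since they were looked up after the values of the members were known. Near the *DQA* and *DQB* genes lay 6 probes for which the files give no gene, and their means were between -3.00 and -2.35. Their signals stood well above background on every array in both dyes. One of them overlaps the *DQA* probe of ENSECAT00000026107 at its end, and its ratios were -3.05, -2.96, -2.88 and -3.12. The other 5 are placed at 2 positions and overlap one another within each. Whether both positions hold the same sequence was not tested. The genes of the 6 probes were not identified here.

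Further along the interval lie genes of the class I peptide pathway. The 5 probes of *PSMB9* had means between -0.82 and -0.77, and the 5 of *TAP2* between -0.23 and -0.19. Between *TAP2* and the DM alpha gene, 3 probes of the uncharacterised LOC100060996 had means of -1.21, -1.28 and -0.63. The bromodomain gene *BRD2*, just before DO alpha, had a mean of 0.06 ± 0.14. Other neighbours were *PSMB8* (-0.94), *TAP1* (-0.60), LOC100060531 (-0.86) and the transcript CD535594 (-1.04). Of the 24 neighbouring probes 9 had a mean below -1, and the median of the 24 was -0.81. Many of them overlap one another, as those of *PSMB9* and of *TAP2* do, so that they are not separate genes. Most of the 24 probes thus had negative ratios, and the *DRB* probes close to *DRA* differed from it in size.

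**Figure D3:**
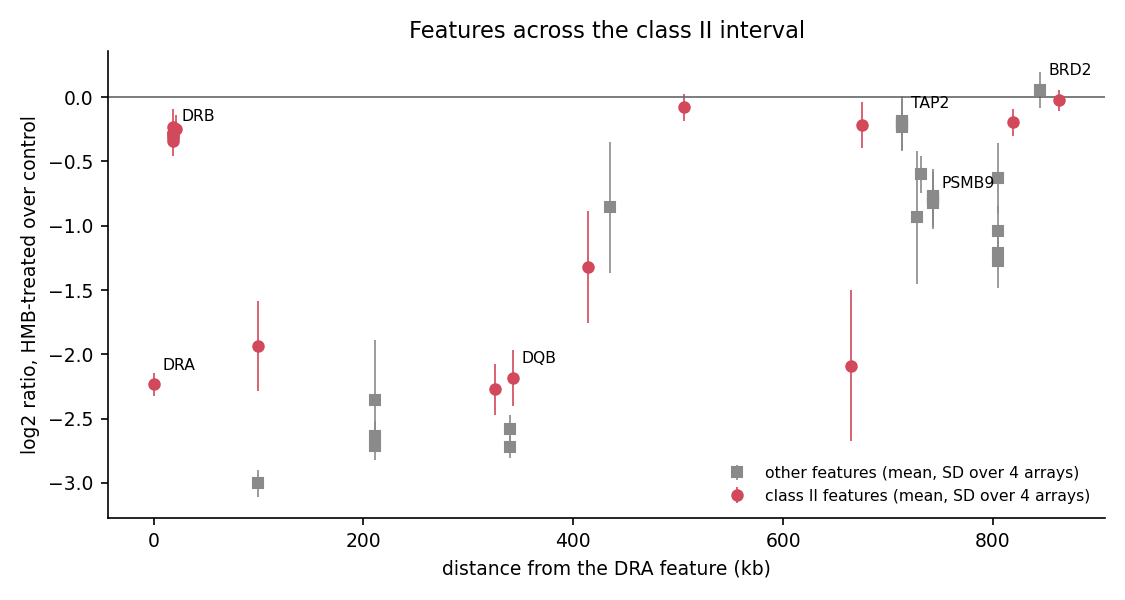
Mean log2 ratio (y axis, bars are SD over 4 arrays) of the 41 tested probes of the class II interval by distance from the *DRA* probe in kb (x axis), with class II members as circles and other probes as squares. Ratios below -2 are found at *DRA*, around the *DQA* and *DQB* genes and at 1 *DRB* probe, and not at the other *DRB* probes.

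Genes that act before, beside or after the class II molecules were taken from lists made by role. Of their 63 genes, 62 had a probe and 52 were tested. In the limma fit 13 had an adjusted P of at most 0.05, with 9 of them lower after HMB and 4 higher. Over all 15536 tested genes, each represented by 1 probe, 11.6% were lower and 10.9% higher. The median of the 52 means was -0.03, beside 0.02 for all tested genes. The count was 8 without array 2 and 6 without array 3. It was 0 with a one-sample test without moderated variance, in which 14 had an unadjusted P under 0.05, beside 21 in limma.

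Among the 7 factors that bind class II promoters or stand beside them, 2 passed and they went opposite ways. *RFX5*, the DNA-binding subunit of RFX, was lower, with ratios of -0.35, -0.40, -0.25 and -0.10 (mean -0.28 ± 0.13, adjusted P = 0.0392). *RFXAP*, its partner, was higher at 0.41, 0.21, 0.21 and 0.40 (mean 0.31 ± 0.11, adjusted P = 0.0240). Neither call was firm. *RFX5* did not pass without array 1 (adjusted P = 0.0914), array 2 (0.177) or array 3 (0.125), and *RFXAP* did not pass without any 1 of arrays 1 to 4 (0.0602, 0.0783, 0.0700 and 0.0548). Both also failed after normexp correction and without pairing within arrays. The third subunit, *RFXANK*, had a mean of -0.07 ± 0.10 (adjusted P = 0.496). The median of the list was 0.09, and relative to all tested probes it was 0.07, which turned to -0.01 without lowess.

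Of the cofactors and repressors of CIITA, 6 of 7 genes were tested and 1 passed. This was *NCOA1*, a steroid receptor coactivator, with ratios of -0.46, -0.53, -0.62 and -0.84 (mean -0.61 ± 0.17, adjusted P = 0.00537). It passed under the 12 alternatives run for single genes, though several reuse the deposited ratios and the summary table repeats the main fit. Like the other listed genes, it did not pass in the one-sample test without moderated variance. *PRDM1*, which represses *CIITA* in plasma cells, was not tested. It was well above background on 2 arrays in control cells and on 1 in HMB-treated cells. The list had a median of -0.06, and 4 of its genes were lower relative to all tested probes but 3 without lowess.

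Genes of the interferon gamma axis upstream of CIITA that are described here did not pass. The receptor gene *IFNGR1* had a mean of -0.05 ± 0.15 (adjusted P = 0.687), the kinase gene *JAK2* of -0.09 ± 0.12 (adjusted P = 0.377) and the transcription factor gene *IRF1* of -0.09 ± 0.23 (adjusted P = 0.551). *IFNG* itself was above background on 1 array in each channel, and no probe of *SOCS1* was found by symbol.

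Proteases and transport proteins that handle the invariant chain showed small ratios. Of 13 genes 11 were tested, and 1 passed, namely *LGMN*, an endosomal protease that makes early cuts in the invariant chain. Its ratios were 0.45, 0.20, 0.21 and 0.28 (mean 0.28 ± 0.11, adjusted P = 0.0316). *LGMN* did not pass without any 1 of arrays 1 to 4 (adjusted P = 0.0636, 0.0978, 0.0920 and 0.0610). Cathepsin S (*CTSS*), which removes the last part of the chain, had ratios of -0.14, -0.18, -0.80 and 0.01 (mean -0.28 ± 0.36, adjusted P = 0.185). The reductase gene *IFI30* had a mean of -0.04 ± 0.10 (adjusted P = 0.728). Over the list the median was -0.02, and relative to all tested probes it turned from -0.04 to 0.13 without lowess.

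The invariant chain also serves as a surface receptor for the cytokine MIF, with CD44 as a partner. Of this list 3 of 5 genes were tested and 0 passed in limma, in which 2 had an unadjusted P under 0.05. *MIF* had a mean of -0.22 ± 0.20 (adjusted P = 0.118) and *CD44* of 0.28 ± 0.22 (adjusted P = 0.0767). Without lowess the mean of *MIF* became 0.40 (adjusted P = 0.0205), and all 3 genes passed as higher, so that no direction is given. This list had a median of 0.01.

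Costimulatory genes, whose products give T cells the signal that accompanies class II, could be compared in part. Of 8 genes 4 were tested, and 2 passed, both higher. The other 4 were not well above background. *ICAM1*, which strengthens the contact with T cells, was higher at 1.26, 0.78, 0.62 and 0.60 (mean 0.81 ± 0.31, adjusted P = 0.00766). *ICOSLG*, the ligand of ICOS, was higher at 0.52, 0.54, 0.37 and 0.85 (mean 0.57 ± 0.20, adjusted P = 0.00911). With normexp background and loess the means were smaller, at 0.38 for *ICAM1* and 0.33 for *ICOSLG*. Neither gene passed without pairing within arrays (0.0671 and 0.0818) or with no filter (0.0593 and 0.0534). *CD40* had a mean of 0.13 ± 0.32 (adjusted P = 0.486), which was -0.02 without array 4, and *CD80* one of 0.39 ± 0.45 (adjusted P = 0.133), while *CD86* was not well above background in either channel. The 4 tested genes had a median of 0.48.

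The class I pathway, which presents peptides made inside the cell, was taken for comparison. All 13 genes were tested, and 6 passed, all lower in HMB-treated cells. Relative to all tested probes 13 were lower, but 10 without lowess, where 4 passed as lower and 1 as higher. *B2M*, the light chain of class I molecules, had ratios of -1.18, -1.31, -1.90 and -1.78 (mean -1.54 ± 0.35, adjusted P = 0.00171). The peptide transporter gene *TAP1* was at -0.41, -0.56, -0.73 and -0.70 (mean -0.60 ± 0.15, adjusted P = 0.00480), and the immunoproteasome gene *PSMB9* at -0.82 ± 0.20 (adjusted P = 0.00342). These 3 genes passed under the 12 alternatives run for single genes, several of which reuse the deposited ratios. They did not pass in the one-sample test without moderated variance. *PSMB8* was at -0.94 ± 0.52 (adjusted P = 0.0184) but did not pass without array 3 (adjusted P = 0.0683), without pairing within arrays (0.0800) or with no filter (0.104). The peptidase genes *ERAP1* (-0.45, adjusted P = 0.0491) and *ERAP2* (-0.36, adjusted P = 0.0415) did not hold. *ERAP1* did not pass without array 2, 3 or 4 (adjusted P = 0.106, 0.157 and 0.128), and *ERAP2* without any 1 of arrays 1 to 4 (0.0686, 0.0594, 0.145 and 0.103). *NLRC5*, the counterpart of CIITA for class I genes, had a mean of -0.02 ± 0.06 (adjusted P = 0.811), although its dimmer probe had one of -0.87. Over the mean of both probes *NLRC5* passed as lower (-0.44, adjusted P = 0.00841). The median of the list was -0.22.

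**Figure D4:**
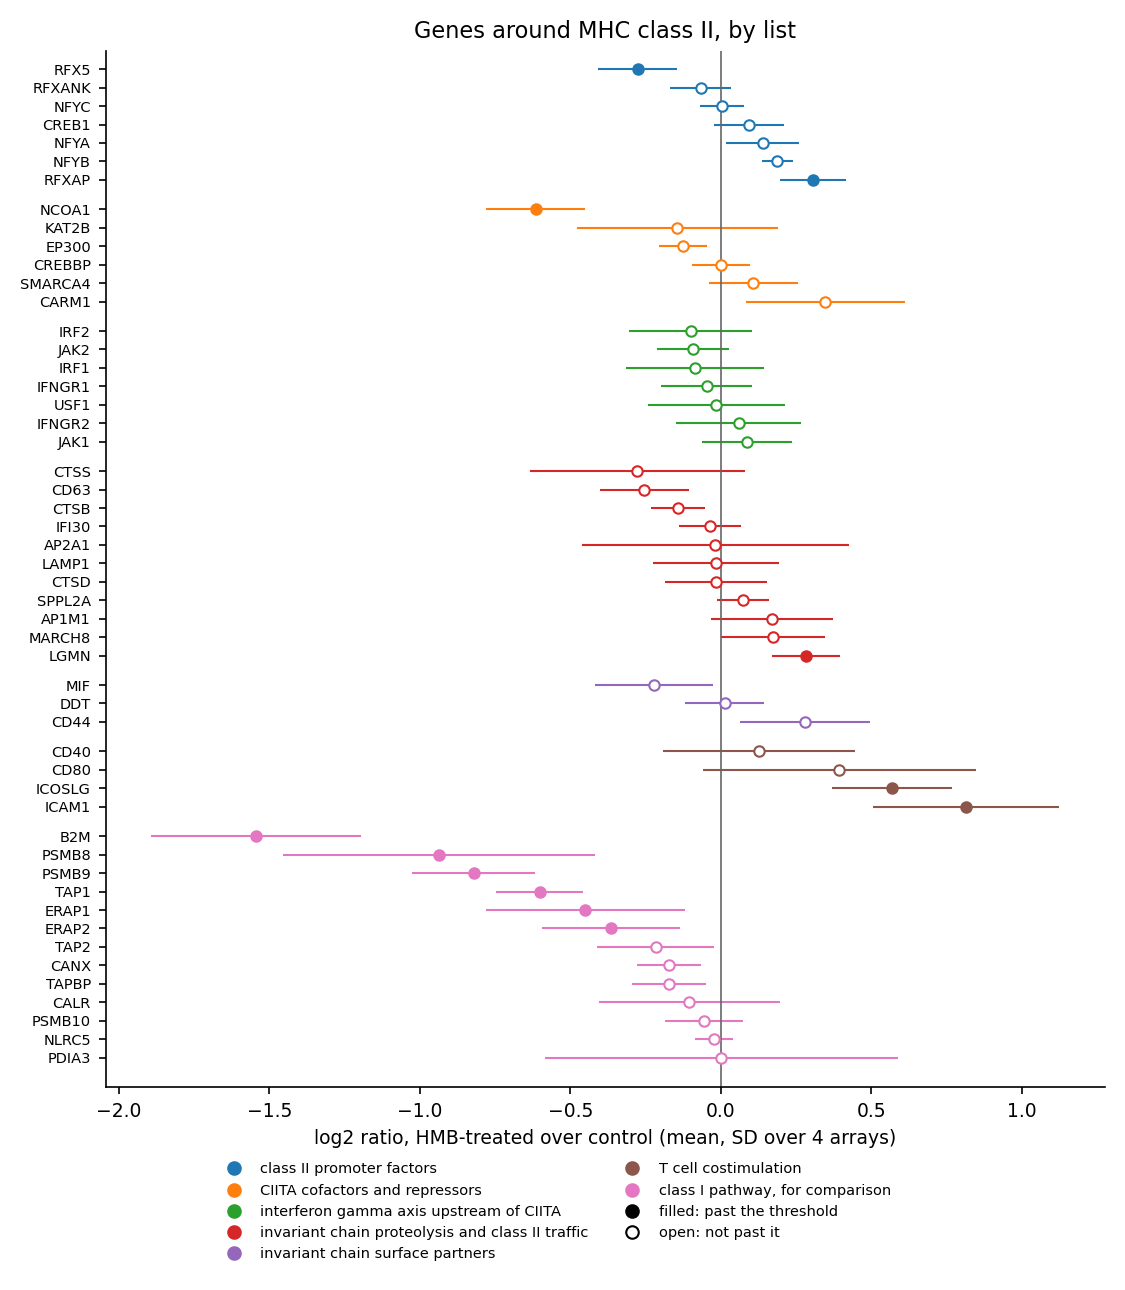
Mean log2 ratio (x axis, bars are SD over 4 arrays) of 51 tested genes around MHC class II, grouped by list (y axis), with filled symbols for those past the threshold of limma. The 6 genes of the class I pathway past the threshold are all lower, and the 2 costimulatory ones are higher.

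Professional antigen-presenting cells carry class II at all times, so markers of leukocytes and of other cells that a muscle culture could hold were examined beside the members. Of 14 myeloid and other leukocyte markers 5 were tested. The other 9 were above background on at most 2 arrays in either channel, and *ITGAM*, *CYBB*, *TYROBP* and *LAPTM5* on 0. The summed control signals of the 5 tested markers were 16996, 15057, 17268 and 15690 on arrays 1 to 4. Their summed HMB signals were 22178, 16748, 19354 and 16706. The sums rest mainly on *PTPRC*, the brightest, with control signals of 11411, 9967, 12331 and 9990, and on *CD14*. *CD14* had a mean of 0.02 ± 0.15 and *CD68* of -0.29 ± 0.30 (adjusted P = 0.868 and 0.120). Without lowess *CD14* passed in limma as higher (0.30, adjusted P = 0.0382). The probe of *PTPRC* was at 0.28 ± 0.13 (adjusted P = 0.0374). This call was lost without any 1 of arrays 1 to 4 (adjusted P = 0.0683, 0.115, 0.111 and 0.0574), and the 8 tested *PTPRC* probes ranged from -0.48 to 0.37. *FCER1G* had a mean of 0.06 ± 0.13. *MSR1* was well above background in HMB-treated cells only, on all 4 arrays, and was at least 1.87-fold higher there (adjusted P = 0.00391), but it did not pass without lowess. *CSF1R* was above background on 1 array in control cells and on 0 in HMB-treated cells.

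The B cell marker *MS4A1* had a mean of -0.08 ± 0.04 (adjusted P = 0.360). Of 5 T cell markers *CD3D* alone was tested, with a mean of 0.12 ± 0.10, control signals of 82.5, 63.3, 61.7 and 61.3 and HMB signals of 93.8, 72.0, 67.9 and 60.4. No endothelial marker of 5 was tested, *PECAM1* being below background on all arrays in both channels. The part of leukocytes or endothelial cells in the ratios of the class II genes was not tested.

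The muscle markers moved in the same direction as the class II genes. Of 12 genes 11 were tested, and all 11 were lower and past the threshold. Without lowess the 11 were lower too, and 8 passed. Their summed signals were 202757, 203718, 219178 and 231535 in control cells and 149542, 103355, 95282 and 86964 in HMB-treated cells, and *MYH3* was the brightest. Among markers of the myogenic lineage, *MYF5* had a mean of -1.01 ± 0.18 (adjusted P = 0.00157) and *MYOD1* of -0.46 ± 0.24 (adjusted P = 0.0230). *MYOG* was at -0.42 ± 0.20 (adjusted P = 0.0222) and *DES* at -0.98 ± 0.37 (adjusted P = 0.00683). Each of these had signals well above background in both groups. The stem cell factor *PAX7* was not well above background on any array. The largest mean was that of *MYH8*, a perinatal myosin, at -1.93 ± 0.36. *MYOD1* did not pass without array 2, 3 or 4 (adjusted P = 0.0880, 0.0909 and 0.0629), nor did *MYOG* (0.0629, 0.0907 and 0.0503), *CKM* (0.0838, 0.101 and 0.0687) or *TNNT3* (0.0606, 0.0813 and 0.0507). Without pairing within arrays *MYOD1* (0.0693) and *MYOG* (0.0617) did not pass, and without lowess *MYOG* (0.0860), *MYH3* (0.103) and *ACTA1* (0.115) did not. With no filter 3 of the 11 passed, namely *MYF5*, *MYH8* and *NCAM1*, and the other 8 had an adjusted P between 0.0582 (*DES*) and 0.138 (*CKM*). The part of these muscle genes in the class II ratios was not tested.

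All 7 fibroblast markers were tested, and 1 passed, compared with 2 after normexp and loess and 5 without lowess, all higher. *PDGFRA* was higher at 1.09, 1.38, 1.46 and 2.19 (mean 1.53 ± 0.47, adjusted P = 0.00358). The others had means between -0.54 (*COL1A1*) and 0.20 (*DPT*). The summed signals of the list were 232987, 227304, 239541 and 309361 in control cells and 293448, 204779, 208435 and 205622 in HMB-treated cells, with *COL3A1* the brightest. Relative to all tested probes, 4 of the 7 were lower, but 1 of the 7 without lowess, where *COL3A1* turned from -0.21 to 0.91. The part of fibroblasts in the class II ratios was not tested.

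Outside the family, the 5 genes with a symbol whose ratios over the 4 arrays were nearest to those of *CD74* were *IFIT3*, *MX1*, *USP18*, *IFI44L* and *IFI44*, in this order. The measure was the root mean square difference of the 4 log2 ratios, which was between 0.78 and 0.98. They were picked by their ratios among 9729 genes and are a description. The order rests on the ratios of *CD74*. Its HMB signal was well above background on 1 array, and its mean changed with normexp background and loess. The HMB signal of *IFIT3* was well above background on 2 arrays. *IFIT3* had ratios of -2.59, -1.90, -3.74 and -2.08, and *MX1* of -2.60, -2.22, -3.81 and -1.87. For each of the 5 the lowest ratio was on array 3, between -4.56 and -3.74. Their control signals varied widely between arrays. That of *MX1* was 16589, 4040, 31066 and 2554, whereas its HMB signal was 2736, 866, 2210 and 697. The control signal of *CD74* had no such spread, its highest value being less than double its lowest, and neither had that of *DRA*.

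**Figure D5:**
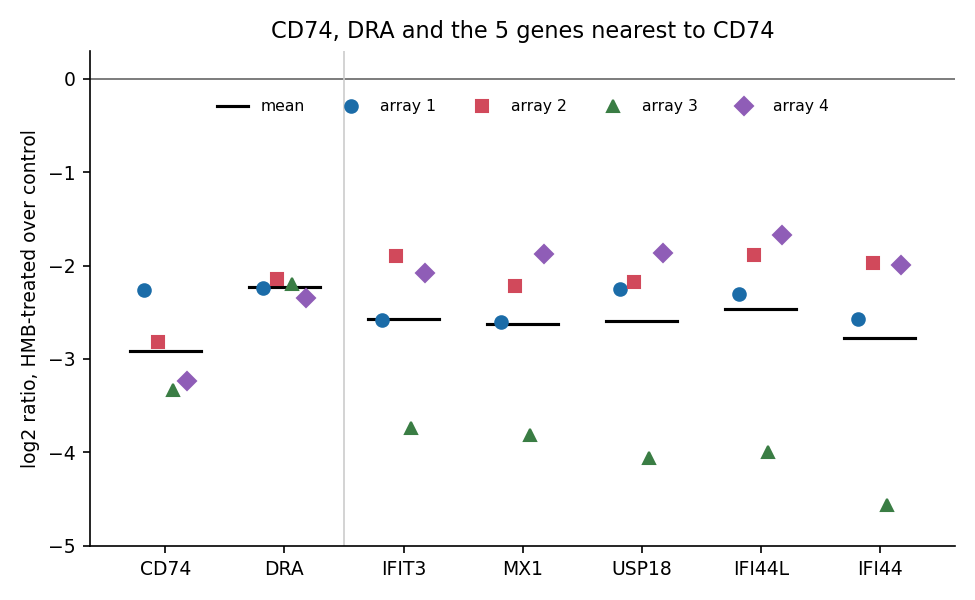
Log2 ratio of HMB-treated over control cells (y axis) on each array for *CD74*, *DRA* and the 5 genes nearest to *CD74* (x axis), with the mean as a bar. The 5 genes have their lowest ratio on array 3, between -4.56 and -3.74, while *DRA* lies between -2.35 and -2.14 on all arrays.

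The adjusted P values above reflect the spread between these 4 arrays. Of all probes with an adjusted P of at most 0.05, those higher after HMB made up 49.1%, against 78.3% without lowess, 29.9% without pairing within arrays and 36.4% without array 2.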

How the data were processed

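Feature Extraction made the values: the files name version 10.10.1.1, another than the methods name. The authors deposited a log10 ratio of the red to the green dye, with background taken off and with linear and lowess dye normalisation. The intensity columns deposited are the processed signal, the mean signal and the median local background. Other deposited columns are marks of 0 or 1 for spots above background, outlying or saturated. Ratios in the deposited summary table differ from these by 0 at most.

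A factor of 3.32 put the ratios on a log2 scale. Control spots (1417) were dropped. So were 11, 17, 32 and 15 spots on arrays 1 to 4 that carry a mark for uneven or outlying signal, and repeated spots were averaged by probe. No spot was saturated, and no member spot was marked. Testing required one and the same dye to stand well above background on each of the 4 arrays, and values on 3 or more. Signal over background had medians of 3.16 to 3.82 for Cy3 and 4.68 to 5.85 for Cy5. Symbols came from the files, from the RefSeq names of gene numbers for 1684 probes and of accessions for 437, and from descriptions for 38.

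R 4.3.3 ran the tests in limma 3.58.1, two-sided with an intercept and empirical Bayes, with the Benjamini and Hochberg adjustment over 27384 probes and a threshold of 0.05, and checked on simulated arrays. Further tools were Python 3.11.15, pandas 2.3.3, numpy 2.4.6, matplotlib 3.10.9 and the R package data.table (1.17.8). Each array holds 1 HMB-treated and 1 control sample, compared within the array. The members, the gene lists and the alternatives were chosen with earlier results of these data known. The genes named are all members, list genes past the threshold or central to their list, markers above background, the defining markers, and the 5 genes nearest to *CD74*. Results of 2 list genes are not reported here, though counts over all lists include them. A gene stands by the brightest of its tested probes. A bound is the mean control signal over the HMB signal raised to the lowest signal well above background of its array and channel, after scaling between arrays. Probes that share at least 30 bases at an offset were counted as 1 site. The alternatives were normexp background (offset 50) with loess, normexp with median centring and no lowess, an ordinary one-sample test (the supplement names a test of this family without its form), an intensity trend with robust prior, separate channels without pairing, no filter, a filter on both dyes, keeping the marked spots, the ratios of the summary table, a minimum of 1.3-fold, the mean over a gene's probes, and leaving out an array at a time.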

Additional observations from a re-analysis of the deposited data

Results flagged for a closer look

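Of 74 sets of 4 ratios, 4 had 1 array far from the others, and chance flags about 1 in 20 such sets. For the *DQB* probe of NM_001142813 the gap of array 4 to its nearest neighbour was 0.833 of the whole range, with -2.51 against values from -2.11 to -2.03. For the *DQB* allele probe AF348966 it was 0.839, again on array 4, with -1.53 against values from -0.98 to -0.87. In 1 of the 5 overlapping *DRB* probes, array 1 stood apart by 0.899 of the range, at -0.25 against values from -0.37 to -0.36. For *PTPRC* array 1 stood apart by 0.938 of the range, at 0.47 against values from 0.21 to 0.22. All 4 probes kept their sign on every array. The cause was not tested.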

How the results depend on the processing

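The probes called numbered 6257, and 768 with the one-sample test (8435 at an unadjusted P under the threshold), 2226 with separate channels and no replicate block, 3690 with no filter and 3863 with a minimum of 1.3-fold. They ranged from 2573 to 4957 when each array was left out, with 2573 without array 2 and 2705 without array 3.

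The member probes called numbered 14, and 9 with the one-sample test (15 unadjusted). They were 8 without lowess, 8 without pairing, 8 with both channels above background, where fewer were tested, and 8 with the minimum fold. They ranged from 8 to 14 with an array left out, being 8 without array 2 or array 3.

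The pathway genes called numbered 13, and 0 with the one-sample test (14 unadjusted, beside 21 in limma), 5 with separate channels and no replicate block and 5 with no filter. They ranged from 6 to 10 with an array left out, being 8 without array 2 and 6 without array 3. Over the single members and genes, 732 values held, 86 were no longer past the threshold, 13 newly passed and 27 member means moved. Many of the 732 could not have changed. Members were judged by their mean, which the filters, the separate channels and the summary table leave as it was. The 732 are therefore no measure of how firm the results are. Of single named genes, *MIF* turned from -0.22 to 0.40 and *COL3A1* from -0.21 to 0.91 without lowess. The cause was not tested. No called member changed sign in the alternatives run. Among the members, the dim probes with signal near background in HMB-treated cells moved most in the alternatives with normexp background. *CD74* moved from -2.91 to -1.36 with normexp and loess.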
